A study of Mus musculus with 9 samples.

Results

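The nuclear genes of oxidative phosphorylation (OXPHOS) were followed through RIP-seq of N2A cells, a mouse neuroblastoma line. They were chosen by symbol, as every gene whose name begins with Nduf, Uqcr or Atp5, or with Cox and a digit, together with Sdha to Sdhd, and symbols marked as pseudogenes (-ps) were left out. This gave 107 of the 54325 gene symbols in the table, carried by 473 of its 140658 transcripts. They comprise 38 genes of complex I, 4 of complex II, 8 of complex III, 21 of complex IV, 17 of complex V and 17 assembly factors, while Cox20b and Ndufa11b were placed in no class. The symbol rule itself uses no measured value, but earlier results of these data were known when it was chosen.

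All cells received 200 nM okadaic acid, which inhibits protein phosphatases and so preserves phosphorylated UPF1 (p-UPF1), for 2 h. RNA was then taken without IP (Input), after IP with rabbit IgG (rIgG IP), or after IP with antibody to UPF1 phosphorylated at S1116 (p-UPF1 IP), and short RNase I fragments were sequenced in 3 libraries of each group. There was no group without okadaic acid and no other cell line, so all values hold for 1 tumour line under phosphatase inhibition. The labels do not say that the 3 libraries of a group came from separate cultures, so the p-values measure the spread between libraries, which may be technical.

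OXPHOS moves electrons from NADH and succinate through complexes I to IV to oxygen and uses the resulting proton gradient to make ATP in complex V. Most subunits are encoded in the nucleus and imported, a minority is encoded in mitochondrial DNA and made on mitochondrial ribosomes, and complex II is wholly nuclear. UPF1 is the central helicase of nonsense-mediated mRNA decay (NMD), and its phosphorylated form accumulates on cytoplasmic mRNAs that are being targeted for decay.

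Library totals were 25184464 to 29857955 counts for Input, 5312526 to 6246110 for the p-UPF1 IP and only 79010 to 474491 for the rIgG IP. A total of 3 counts, taken as the smallest detectable amount, is 0.100 to 0.119 CPM (counts scaled to library total) in Input, 0.480 to 0.565 CPM in the p-UPF1 IP and 6.32 to 37.97 CPM in the rIgG IP. These floors and all intervals below cover counting error only. The 10 most-counted transcripts held 76.8% to 82.3% of each library. Input carried neuroblastoma markers, with Hand2 at 294 to 300 counts and Stmn2 at 1214 to 1413, while Dbh, a noradrenergic enzyme, was at 3 to 13. Markers of other cells were at or near 0 (Col1a1, Col3a1, Ptprc and Gfap at 0 to 2), with Mbp, expressed in myelinating cells, at 21 to 37.

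Members were well covered in Input and in the p-UPF1 IP but not in the rIgG IP. Of the 107, 100 had a count in every Input library, 90 in every p-UPF1 IP library and 34 in every rIgG IP library. Cox6b2, Cox8b, Cox8c, Ndufs6b and Ndufa11b were at 0 in all 9 libraries. Of these, Cox6b2, Cox8b and Cox8c encode tissue-restricted forms of complex IV subunits.

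Together the members took the largest share of Input libraries, a somewhat smaller one of rIgG IP libraries and the smallest of p-UPF1 IP libraries. The share of all counts was 1463, 1423 and 1503 CPM in the 3 Input libraries, 1311, 1223 and 987 CPM in the rIgG IP and 433, 485 and 480 CPM in the p-UPF1 IP. The p-UPF1 IP libraries thus lay below all others, and the Input mean was 3.14 times the p-UPF1 IP mean. With 3 libraries against 3, an exact permutation test of such a sum cannot reach 0.05, so none is given.

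Each of the 5 complexes lay lower in all p-UPF1 IP libraries than in all Input libraries, and complex IV showed the widest gap. Complex IV took 245, 229 and 248 CPM of Input and 29.9, 40.1 and 39.9 CPM of the p-UPF1 IP, so that the Input mean was 6.57 times the p-UPF1 IP mean. The corresponding ratio was 3.32 for complex I, 2.61 for complex II, 3.90 for complex III and 3.17 for complex V. For complexes I, III, IV and V every rIgG IP library lay above every p-UPF1 IP library, whereas for complex II the rIgG IP had 94.8, 39.0 and 25.3 CPM on 45, 8 and 2 counts against 36.5, 39.6 and 40.2 CPM. Complex V was the largest share, at 614, 619 and 634 CPM of Input, and Atp5b alone held 17.7% to 18.4% of all member counts in Input and 17.9% to 19.4% in the p-UPF1 IP.

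The assembly factors, which help to build the complexes but are not part of them, had no lower summed share in the p-UPF1 IP. They took 51.8, 47.6 and 51.4 CPM of Input and 58.4, 69.1 and 65.8 CPM of the p-UPF1 IP. By library totals, all p-UPF1 IP libraries lay above those of Input and the mean was 1.28 times the Input mean. This rise depends on the scaling. The TMM factors used in the tests below were 0.833 to 0.890 in Input and 1.11 to 1.21 in the p-UPF1 IP, which lowers the p-UPF1 IP relative to Input. Gene by gene with these factors, 9 of the 17 were lower (52.9%, against 35.7% of all genes tested) and 5 higher (29.4%, against 26.3%). Their median log2 fold-change was −0.81, against −0.42 over all genes, so their share of higher genes lay near the background. The 13 mitochondrially encoded subunits, listed for comparison, took 8117, 8356 and 7945 CPM of Input and 637, 772 and 556 CPM of the p-UPF1 IP, with an Input mean 12.4 times the p-UPF1 IP mean.

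**Figure D1:**
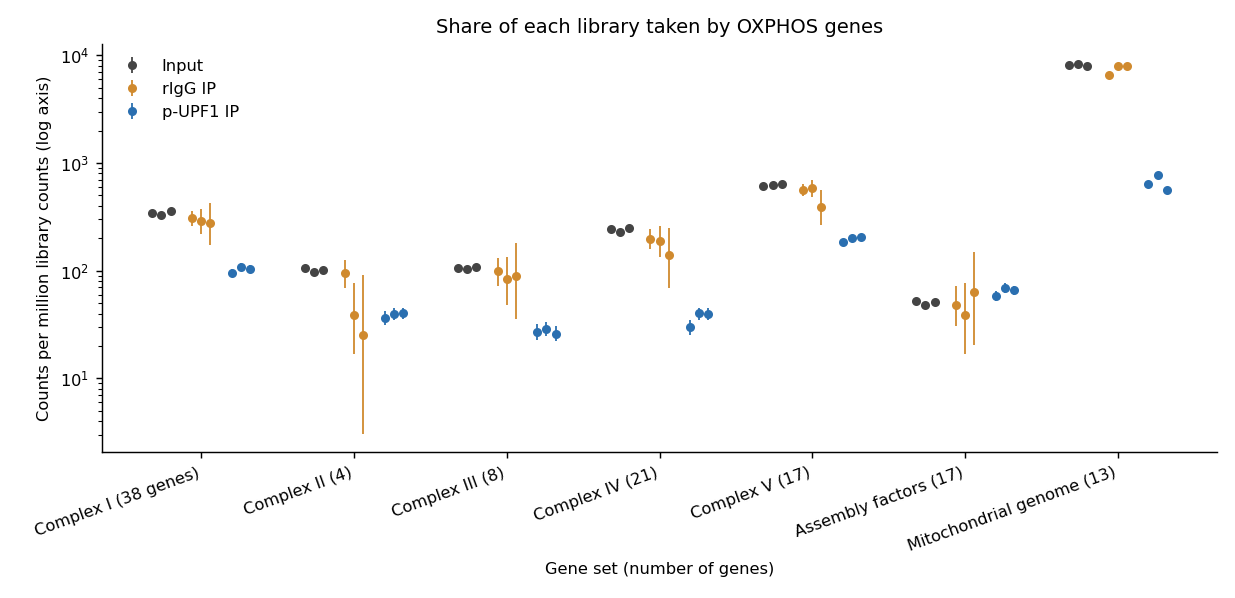
CPM of library counts (log axis) taken by each OXPHOS class in the 9 libraries, with exact 95% binomial intervals for counting error; each point is 1 library. The p-UPF1 IP libraries lie below the Input libraries for complexes I to V and for the mitochondrially encoded subunits. For the assembly factors they lie above the Input libraries by library totals, which depends on the scaling.

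At the start of the coding sequence, several members share the letters ATGGCGGC, in which the start codon is followed by GCGGC; this run is contained in the TISU element, known to direct initiation on short 5′ leaders of many mitochondrial protein genes. It was searched only there and only on the coding strand, in 1 coding transcript per gene of GENCODE M21. It stood in 14 of 98 tested members with such a transcript (14.3%) and in 3.55% of all 12760 tested coding genes. The windows below (GRCm38, 12 bases before the start codon to 15 after it) are those of an iron-sulfur subunit of complex II, a core subunit of complex III and an accessory subunit of complex I, shown as examples of the shared run. Capitals mark the run.
Sdhb, chr4:140961393-140961422, plus strand: tcaggagccaaaATGGCGGCgacggtcggg
Uqcrc1, chr9:108936707-108936736, plus strand: ggaagttagaagATGGCGGCgtccgcagtc
Ndufs4, chr13:114388039-114388068, minus strand: gcctacaggaagATGGCGGCggtctcaatg
Sdhb, Uqcrc1 and Ndufs4, chosen because they carry the run, begin their open reading frames with the same 8 letters. The flanking bases differ in part, but directly before the start codon both Uqcrc1 and Ndufs4 have gaag. The 14 carriers had a median log2 fold-change in the p-UPF1 IP over Input of −2.43 and the other 84 members one of −2.55, so the carriers lay close to the rest.

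In the p-UPF1 IP over Input, nearly all members were under-recovered. Of the 100 members tested (summed count of at least 10), 89 were lower and 5 higher by edgeR's quasi-likelihood test at a Benjamini-Hochberg adjusted p under 0.05, and 6 were not called. Over all 16919 genes tested, 35.7% were lower and 26.3% higher. With a log2 fold-change beyond 1 added to the rule, 86 members were depleted (26.5% of all genes) and 4 enriched (17.2% of all genes). The median log2 fold-change was −2.52 over the members and −0.42 over all genes, and 92 members lay below the all-gene median. In 90 members every p-UPF1 IP library was below every Input library (42.1% of all genes), and in 5 every one was above (28.0%). The 7 untested members were the 5 at 0 throughout, Cox20b (4, 3 and 0 counts in Input) and Ndufb4c (none in Input). Both groups came from the same line under the same treatment, and the libraries are bulk, so differences between single cells are not seen. Because the values are shares of a library, and no spike-in was described, a lower share does not give an absolute loss. Scaling by library totals alone moved the all-gene median from −0.42 to −0.01, and left 83 members lower and 6 higher against 25.8% and 33.7% of all genes.

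By complex, 35 of 36 tested genes of complex I were lower (median −2.61), as were 4 of 4 of complex II (−1.68), 8 of 8 of complex III (−2.67), 16 of 18 of complex IV (−3.46) and 17 of 17 of complex V (−2.82). None of these 83 genes was higher. Of them, 82 have a coding transcript in GENCODE M21, and Cox6c2 does not. Of the 17 assembly factors, 9 were lower (52.9%), 5 higher (29.4%) and 3 not called (median −0.81), against 35.7% lower and 26.3% higher over all genes.

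**Figure D2:**
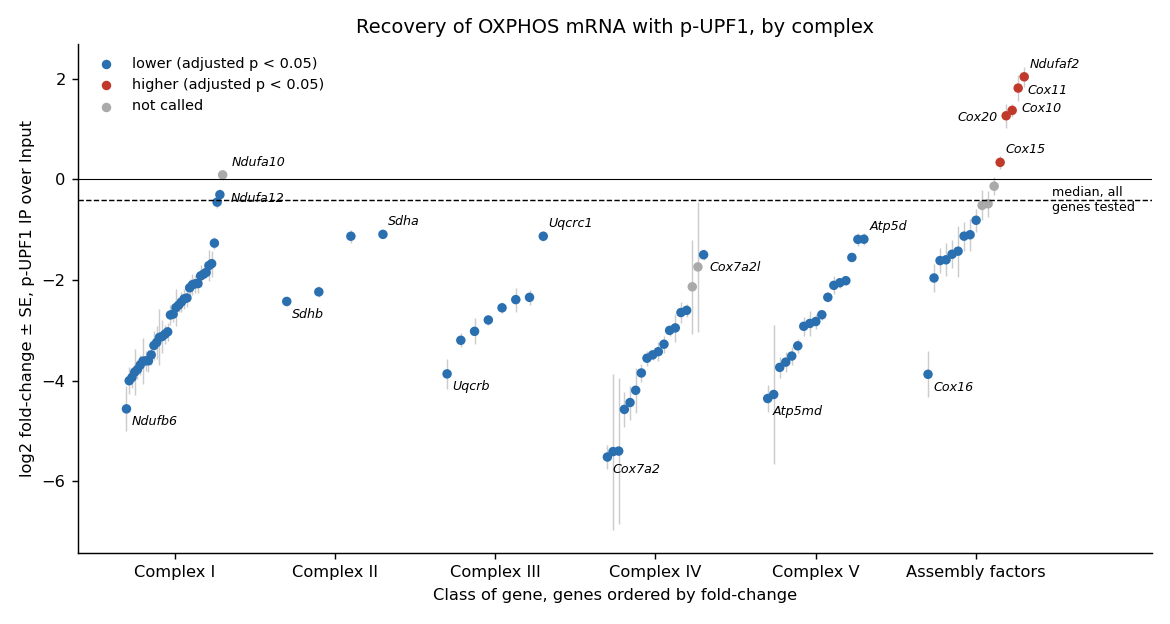
log2 fold-change ± SE of each tested member in the p-UPF1 IP over Input, ordered within its class, with the all-gene median as a dashed line. With TMM scaling, the 5 genes called higher are all assembly factors, and the subunits reach from Cox7a2 at −5.52 to Ndufa10 at 0.09.

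In complex I, the entry point for electrons from NADH, the member with the most Input counts was Ndufs7. Ndufs7, an iron-sulfur subunit that passes electrons towards ubiquinone, had 917, 813 and 1169 counts in Input against 24, 16 and 14 in the p-UPF1 IP. Scaled by TMM, this was 41.0 ± 5.44 CPM (SD, n = 3) against 2.74 ± 1.15 CPM, a log2 fold-change of −3.94 ± 0.20 (SE, adjusted p = 6.59e-08). Every p-UPF1 IP library was far below every Input library.

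Ndufb6, an accessory subunit of the membrane arm, was the lowest of complex I, with 198, 173 and 300 counts in Input against 0, 2 and 6 in the p-UPF1 IP (log2 fold-change −4.56 ± 0.45, adjusted p = 8.52e-06). On so few counts the value moved to −5.87 without p-UPF1 IP replicate 3. The gene at the other end was Ndufa10, an accessory subunit, with 257, 283 and 319 counts in Input against 73, 95 and 96 in the p-UPF1 IP. After scaling, Ndufa10 was at 12.2 ± 0.902 and 12.98 ± 0.579 CPM, the libraries overlapped, and the log2 fold-change was 0.09 ± 0.09 (adjusted p = 0.434). Scaled by library totals alone it was 0.50 higher on the log2 scale (adjusted p = 0.00157). Ndufa12 (−0.30) and Ndufv1 (−0.45), an accessory and a flavoprotein subunit, were lower by the test but close to the all-gene median.

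Complex II, succinate dehydrogenase, which also works in the TCA cycle, split into a pair near −1 and a pair near −2. Sdha, the flavoprotein that oxidizes succinate, had 628, 598 and 671 counts in Input against 71, 94 and 92 in the p-UPF1 IP (log2 fold-change −1.09 ± 0.08, adjusted p = 9.08e-07). Sdhd, a membrane anchor, had 340, 289 and 353 counts and 43, 37 and 49 (−1.13 ± 0.13, adjusted p = 3.23e-05). Both were lower in every library.

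Sdhb, the iron-sulfur subunit between the flavin and the membrane, had 1238, 1106 and 1424 counts in Input against 55, 72 and 75 in the p-UPF1 IP (−2.43 ± 0.10, adjusted p = 1.19e-08). Sdhc, the other membrane anchor, had 527, 460 and 582 counts and 25, 36 and 35 (−2.24 ± 0.11, adjusted p = 5.69e-08). The 4 genes thus fell into pairs, with standard errors much smaller than the gap between the pairs. Differences between single genes were not tested.

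In complex III, which hands electrons from ubiquinol to cytochrome c, the member with the most Input counts was Uqcrq, a small membrane subunit, at 608, 549 and 700 in Input against 28, 33 and 30 in the p-UPF1 IP (−2.55 ± 0.11, adjusted p = 1.93e-08). Uqcrc2, a core subunit, had 603, 571 and 682 counts in Input against 22, 28 and 27 in the p-UPF1 IP (−2.79 ± 0.10, adjusted p = 6.41e-09). The 8 genes of the complex ranged from Uqcrb at −3.87 to Uqcrc1, the other core subunit, at −1.13, and all were called lower.

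Complex IV, cytochrome c oxidase, had the lowest median of the 5 complexes. Cox7a2, an accessory subunit, had 615, 558 and 765 counts in Input against 3, 2 and 7 in the p-UPF1 IP, or 27.5 ± 2.99 against 0.590 ± 0.363 CPM (−5.52 ± 0.23, adjusted p = 1.80e-08). Cox7b had 170, 126 and 214 counts and 1, 2 and 3 (−4.57 ± 0.35, adjusted p = 1.22e-06), and Cox6c2 had 153, 127 and 183 counts and 1, 1 and 4 (−4.44 ± 0.34, adjusted p = 1.31e-06). These genes kept only single counts in the p-UPF1 IP, so their exact fold rests on few reads: without p-UPF1 IP replicate 3, Cox7a2 was at −6.12 and Cox6c2 at −5.34.

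The most counted genes of complex IV were Cox4i1 and Ndufa4. Cox4i1, a regulatory subunit, had 1080, 1029 and 1118 counts in Input against 21, 29 and 33 in the p-UPF1 IP (−3.49 ± 0.10, adjusted p = 2.19e-09). Ndufa4, named for complex I but now counted with complex IV, had 921, 783 and 1153 and then 12, 25 and 20 (−3.85 ± 0.18, adjusted p = 3.13e-08). Both groups of libraries were well apart for each gene.

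Several tissue-restricted paralogs of complex IV subunits had few counts in these cells. Cox4i2 had 11, 8 and 5 counts in Input against none in either IP, so it was at least 2.31-fold lower in the p-UPF1 IP against a floor of 3 counts over the group. Cox7a1, the form of heart and muscle, had 6, 9 and 9 counts and was also at 0 in both IPs (at least 2.31-fold lower). Cox6a2, the other muscle form, had 13, 11 and 8 counts in Input against 0, 2 and 0 in the p-UPF1 IP, a ratio of 0.217 with a counting interval of 0.0251 to 0.849, and was not called (adjusted p = 0.0688).

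The widely expressed partners were far more abundant and were called lower. Cox6a1 had 613, 541 and 685 counts in Input against 20, 22 and 24 in the p-UPF1 IP (8.01-fold lower, adjusted p = 9.80e-09). Cox6b1 had 250, 209 and 258 counts and 5, 16 and 12 (−2.65 ± 0.22, adjusted p = 2.09e-06), while its paralog Cox6b2 was not detected. Ndufa4l2, a paralog of Ndufa4 known to respond to hypoxia, had 5, 1 and 7 counts in Input against 0, 1 and 0 in the p-UPF1 IP, a ratio of 0.267 with an interval of 0.00630 to 1.77, which was not distinguishable at this depth.

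Cox7a2l, which encodes a factor that joins complexes III and IV, was the least depleted of complex IV. Its summed counts were 608, 594 and 672 in Input against 46, 68 and 78 in the p-UPF1 IP (−1.50 ± 0.11, adjusted p = 9.27e-07). Input and p-UPF1 IP counts went to different transcripts. ENSMUST00000025095.8 had 604, 594 and 672 counts in Input against 0 in all p-UPF1 IP libraries, whereas ENSMUST00000167741.8 had 0 in all Input libraries and 46, 68 and 78 in the p-UPF1 IP. The 2 transcripts share most of their sequence: only 1.54% of the 35-nt windows of the first, and 9.13% of those of the second, occur in no other annotated transcript. The summed value is therefore the one to read.

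In complex V, the ATP synthase, the catalytic β subunit gene Atp5b was the most counted member of all. It had 6994, 6585 and 7955 counts in Input, 126, 62 and 17 in the rIgG IP and 433, 525 and 581 in the p-UPF1 IP. Scaled values were 305.9 ± 12.98 and 75.7 ± 5.32 CPM in Input and the p-UPF1 IP (−2.01 ± 0.08, adjusted p = 9.41e-09). Per length, Atp5b was also first, at 174 ± 12.3 CPM per kilobase of transcript in Input, ahead of Ndufa4 at 57.2 ± 6.18 and Cox4i1 at 53.9 ± 2.95. The latter pair did not differ beyond their spread, and neither did Sdhb (40.6 ± 1.87), Atp5g3 (40.6 ± 2.66) and Cox6a1 (39.7 ± 1.87), which came next.

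The other parts of the catalytic head were lower too. Atp5a1, the α subunit, had 2300, 2179 and 2398 counts in Input against 205, 224 and 247 in the p-UPF1 IP (−1.55 ± 0.07, adjusted p = 4.58e-08). Atp5c1, the γ subunit of the rotating shaft, had 1137, 1104 and 1398 and then 52, 79 and 76 (−2.34 ± 0.10, adjusted p = 2.62e-08). At the low end, Atp5md, a small membrane subunit, had 260, 206 and 330 counts and 4, 3 and 4 (−4.36 ± 0.27, adjusted p = 2.80e-07).

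Subunit c, which forms the rotating ring in the membrane, is encoded by 3 genes whose mature proteins are identical. Atp5g3 was the most counted, at 757, 692 and 929 in Input against 18, 23 and 28 in the p-UPF1 IP (−3.31 ± 0.13, adjusted p = 1.40e-08). Atp5g1 had 247, 234 and 312 counts and 10, 13 and 7 (−2.92 ± 0.19, adjusted p = 4.73e-07). Both were lower in every library.

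Atp5g2 was uneven between Input libraries. It had 16, 598 and 616 counts in Input against 13, 4 and 1 in the p-UPF1 IP, so that the groups overlapped, although the test called it lower (−4.28 ± 1.39, adjusted p = 0.0215). The value moved to −5.57 without p-UPF1 IP replicate 1, and the call was lost without replicate 2 (adjusted p = 0.0804) or 3 (adjusted p = 0.0850). The processed pseudogene Gm10175, chosen after its values were seen, had 620, 0 and 79 counts in the same Input libraries and 16, 21 and 23 in the p-UPF1 IP. Of the 35-nt windows of the Atp5g2 mRNA, 87.7% occur in other genes, Gm10175 first. Summed over both, the counts were even, at 636, 598 and 695 in Input against 29, 25 and 24 in the p-UPF1 IP (−2.83 ± 0.12, adjusted p = 2.37e-08, an alternative chosen after seeing the data). The value of Atp5g2 alone is therefore uncertain.

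Of 101 members with a coding transcript in the annotation, 46 had no 35-nt window in another gene, 31 had over 10% of theirs and 6 over 50%. Among tested members with at most 10%, 57 of 67 were lower and 4 higher (median −2.24); among those with more, 30 of 31 were lower and 1 higher (median −2.69).

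**Figure D3:**
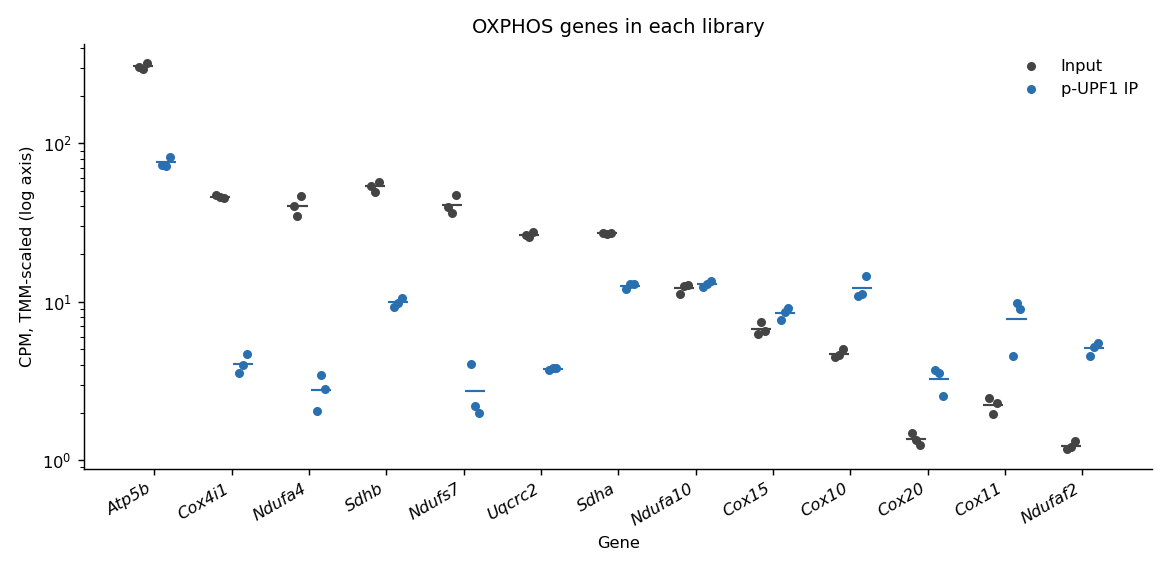
TMM-scaled CPM (log axis) of 13 members in each Input and p-UPF1 IP library; points are libraries and bars are means of 3. Subunits from Atp5b to Sdha sit lower in the p-UPF1 IP, Ndufa10 overlaps, and the 5 assembly factors on the right sit higher.

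The 5 members that were higher in the p-UPF1 IP over Input were Ndufaf2, Cox11, Cox10, Cox20 and Cox15. Ndufaf2 encodes a chaperone used late in the building of complex I. It had 27, 27 and 33 counts in Input, none in the rIgG IP and 27, 38 and 39 in the shallower p-UPF1 IP libraries. This was 1.23 ± 0.0805 against 5.09 ± 0.471 CPM (log2 fold-change 2.04 ± 0.19, adjusted p = 6.56e-06). The groups did not overlap.

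Cox11 encodes a protein that delivers copper to complex IV. It had 57, 44 and 57 counts in Input against 27, 72 and 64 in the p-UPF1 IP, or 2.24 ± 0.26 against 7.82 ± 2.85 CPM (1.82 ± 0.25, adjusted p = 0.000113). Cox10, which makes heme O, the precursor of the heme of complex IV, had 103, 103 and 125 counts and 64, 81 and 103 (4.70 ± 0.287 against 12.2 ± 2.04 CPM, 1.37 ± 0.14, adjusted p = 9.06e-06). All 3 p-UPF1 IP libraries were above all Input libraries for both genes.

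Cox20, which shares 25.4% of its 35-nt windows with Cox20b and is a chaperone of the mitochondrially encoded COX2 subunit, had 34, 30 and 31 counts in Input against 22, 26 and 18 in the p-UPF1 IP (1.27 ± 0.24, adjusted p = 0.00103). Cox15, which turns heme O into heme A, had 143, 167 and 162 counts and 45, 63 and 65 (6.73 ± 0.647 against 8.48 ± 0.780 CPM, 0.34 ± 0.13, adjusted p = 0.0376). The call for Cox15 was small and not firm: DESeq2 gave an adjusted p of 0.0519, and leaving out single libraries gave between 0.0192 and 0.0979. It was past the threshold without Input replicate 2 or p-UPF1 IP replicate 1, and not without any of the other 4.

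All 5 of these genes have an exon that overlaps an exon of another gene on the opposite strand, as do 33 of the 100 tested members in all. Of those 33, 26 were lower (median −2.11), and of the 67 without such an overlap 63 were lower and none higher (median −2.68). Whether the quantification used strand is not given in the sources used here, and without strand, reads of both genes cannot be told apart. The partners' own counts follow (genes chosen after their values were seen), but whether reads moved between the genes of a pair was not tested. B230220B15Rik, opposite Ndufaf2, had 1283, 1338 and 1174 counts in Input against 2, 2 and 1 in the p-UPF1 IP. Hnrnpu, opposite Cox20, had 2867, 2766 and 3325 and then 475, 639 and 530. Tom1l1, opposite Cox11, had 99, 97 and 147 and then 8, 8 and 11. Opposite Cox15, Entpd7 had 124, 128 and 135 and then 15, 22 and 25, and Cutc had 8, 20 and 18 and then 0, 0 and 1. 9630013K17Rik, opposite Cox10, had 0, 0 and 1 and then 0 in each p-UPF1 IP library.

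The other assembly factors in the set were lower or did not pass the test. Cox16, needed for COX2 maturation, was at −3.87, but 88.7% of its 35-nt windows occur in other genes, Gm20498, which overlaps it on the same strand, first, so its value is uncertain as well. Ndufaf4, Cox17 and Ndufaf1 were at −1.96, −1.61 and −1.60. Cox19 (−0.13, adjusted p = 0.533), Cox18 (−0.52, adjusted p = 0.153) and Ndufaf5 (−0.48, adjusted p = 0.124) were not called. The remaining uncalled members were Cox6a2, Ndufa4l2 and Ndufa10.

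At the level of transcripts, calls were rarer and the spread between libraries was wider, with a biological coefficient of variation of 96.7% against 12.4% for summed genes. Of 262 member transcripts tested, 10 were enriched in p-UPF1 IP libraries relative to Input (3.82%, against 8.55% of all transcripts tested) and 86 depleted (32.8%, against 16.2%). Of the 12 tested member transcripts annotated as NMD substrates, 1 was enriched (8.33%, against 10.1% of all 3050 such transcripts tested) and 1 depleted (8.33%, against 12.9%), so the members lay near the background.

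The enriched one was ENSMUST00000225702.1 of Ndufaf2, on chromosome 13 from 108002715 to 108158623 (GRCm38, minus strand). Its last exon junction lies 134 nt after the stop codon, an arrangement known to trigger NMD, and its 3′ UTR is 2212 nt long. It had 4, 1 and 2 counts in Input, 0 in the rIgG IP and 15, 27 and 21 in the p-UPF1 IP (4.54 ± 0.64, adjusted p = 0.00522). Of its 35-nt windows, 85.5% occur in no other annotated transcript. The annotated coding transcript, ENSMUST00000163558.2, had 15, 17 and 18 counts in Input against 4, 2 and 4 in the p-UPF1 IP (−0.79 ± 0.61, adjusted p = 0.352), and ENSMUST00000225830.1, also coding, had 8, 9 and 13 and then 8, 9 and 14 (1.52 ± 0.51, adjusted p = 0.0804). Most p-UPF1 IP counts of Ndufaf2 thus lay on the first, and most Input counts on the other 2. Leaving out any single library kept the first past both thresholds, with adjusted p from 0.0103 to 0.0243, although a fit with replicate number as a block did not (adjusted p = 0.0811).

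The stop codons of the first 2 transcripts differ in place, and their windows (12 bases before the stop codon to 15 after it, capitals marking the stop codon) show where each reading frame ends. The window of ENSMUST00000225702.1 spans an intron, so its genomic ends are far apart.
ENSMUST00000225702.1, chr13:108024295-108158446, minus strand: agaggtacagccTGAaataggaagtcctaa
ENSMUST00000163558.2, chr13:108052691-108052720, minus strand: agacaaagtcaaTGAatgacaaagtcaatg
Both frames end in TGA, at different places in the gene, and only the first has an exon junction after its stop codon.

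Among the other enriched transcripts, ENSMUST00000020851.14 of Cox11 had 6, 9 and 7 counts in Input against 22, 70 and 62 in the p-UPF1 IP (4.22 ± 0.49, adjusted p = 0.00271), while ENSMUST00000099960.2 of the same gene had 51, 35 and 50 and then 5, 2 and 2 (−2.34 ± 0.61, adjusted p = 0.0409). ENSMUST00000049091.8 of Cox10 carried nearly all counts of its gene (1.08 ± 0.17, adjusted p = 0.00755), and was just under the fold threshold, at 0.99, without p-UPF1 IP replicate 3. ENSMUST00000139295.2 of Atp5b, annotated as a retained intron, had 97, 161 and 109 counts in Input against 135, 153 and 155 in the p-UPF1 IP (1.76 ± 0.24, adjusted p = 0.00469), against the lower sum of its gene. Further enriched transcripts of Uqcrc1, Ndufa12, Cox6b1, Atp5a1 and Cox7a2l had 1.86% to 17.5% of windows of their own.

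**Figure D4:**
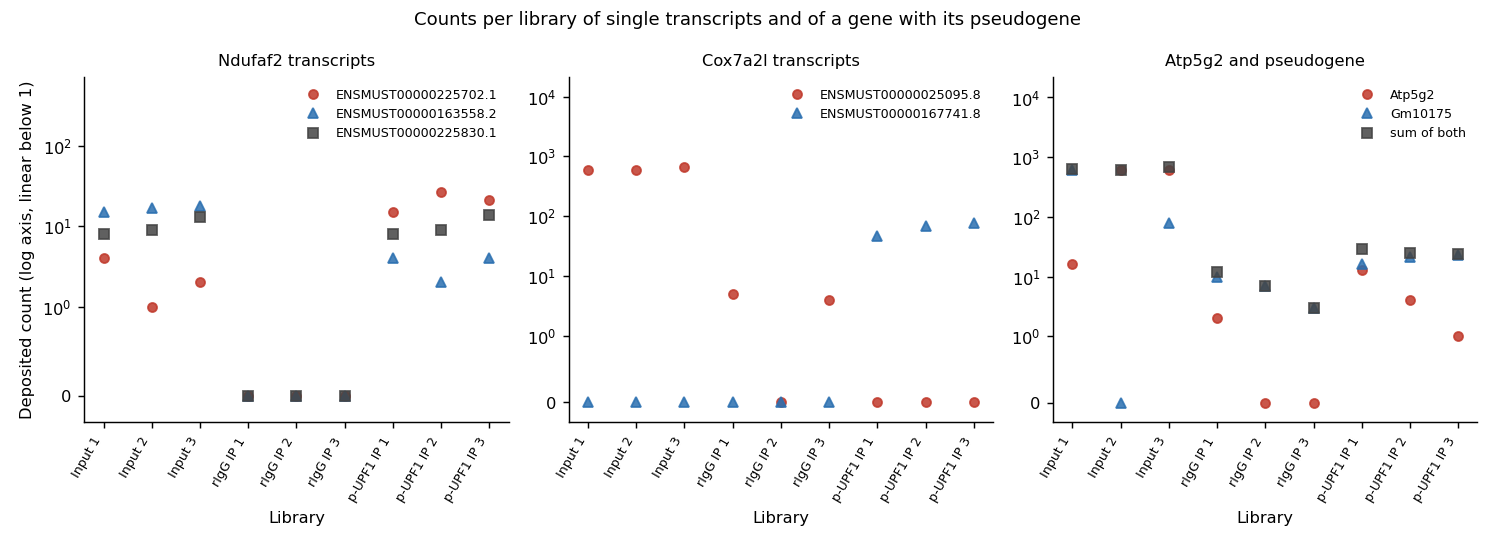
Deposited counts in each of the 9 libraries (log axis, linear below 1) for 3 Ndufaf2 transcripts, 2 Cox7a2l transcripts, and Atp5g2 with the pseudogene Gm10175 and their sum. The Ndufaf2 transcript ENSMUST00000225702.1 rises from 1 to 4 counts in Input to 15 to 27 in the p-UPF1 IP, and the sum of Atp5g2 and Gm10175 is even where each alone is not.

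The members Sdhb, Ndufb8 and Atp5k also stand on the study's list of NMD targets, which was made partly from these libraries and is not independent of them. The list required a rise in RNA-seq after UPF1 knockdown as well as enrichment in the p-UPF1 IP, and the study quantified its RIP-seq per transcript. Sums per gene are thus a different measure and do not test the listing. Summed per gene, all 3 were lower in the p-UPF1 IP over Input. Ndufb8, an accessory subunit of complex I, had 268, 272 and 304 counts in Input against 10, 16 and 17 in the p-UPF1 IP (−2.50 ± 0.14, adjusted p = 1.35e-07). Atp5k, a small membrane subunit of complex V, had 147, 151 and 212 counts and 6, 9 and 5 (−2.86 ± 0.24, adjusted p = 2.72e-06).

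Single transcripts of each gene had few counts in Input and a few more in the p-UPF1 IP. ENSMUST00000118632.1 of Atp5k had 0 in Input against 5, 0 and 4 in the p-UPF1 IP, a sum of 9 that was below the filter and so was not tested. ENSMUST00000164543.1 of Ndufb8, a retained intron, had 0 in Input against 0, 7 and 4 in the p-UPF1 IP (adjusted p = 0.102). ENSMUST00000125780.1 of Sdhb, a non-coding processed transcript, had 3, 3 and 1 counts in Input against 11, 8 and 7 in the p-UPF1 IP (3.30 ± 0.76, adjusted p = 0.0278). This call was lost without any 1 of the Input libraries or without p-UPF1 IP replicate 1, with adjusted p from 0.0537 to 0.0738. Its coding transcript, ENSMUST00000010007.8, had 1230, 1103 and 1421 counts and then 44, 64 and 68 (−2.93 ± 0.13, adjusted p = 0.000192).

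Against the rIgG IP the comparison had less depth. Of 86 members tested, 34 were lower in the p-UPF1 IP (5.56% of all 12033 genes tested) and 3 higher (18.5% of all genes). The median log2 fold-change was −1.41 over members and 0.91 over all genes. With genes at 0 in a group set to their bound against 3 counts, the medians were −1.41 and 0.19. The 34 comprised 12 of 31 tested genes of complex I, 1 of 4 of complex II and 4 of 8 of complex III. They also held 6 of 11 of complex IV, 10 of 17 of complex V and 1 of 15 assembly factors (6.67%). The 3 higher members were all assembly factors (20.0% of the 15 tested), near the 18.5% of all genes. In 21 members every p-UPF1 IP library was below every rIgG IP library (5.44% of all genes), and in 10 every one was above (46.4%). Of these 10, 7 had no rIgG IP count, so any count in each p-UPF1 IP library placed them above, which decides nothing. For Atp5l, Ndufaf6, Ndufs8 and Uqcrb among them, the bound against 3 counts gave no fold above 1. Genes without rIgG IP counts enter the 46.4% in the same way. With the fold threshold added, 33 were depleted (5.31% of all genes).

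The count of lower members rested on rIgG IP replicate 1, the deepest of its group: without it 9 members were lower, and without each other library in turn 29 to 36. The same p-UPF1 IP libraries served here and against Input, so the values are not independent. The 4 members with the most rIgG counts were Atp5b, Atp5a1, Cox4i1 and Atp5c1, and all 4 were lower. Cox4i1 had 21, 10 and 2 counts in the rIgG IP, or 38.7 ± 19.0 against 5.12 ± 0.661 CPM in the p-UPF1 IP (−3.10 ± 0.37, adjusted p = 7.34e-07). Atp5b was at 249 ± 91.9 and 95.6 ± 6.30 CPM (−1.50 ± 0.19, adjusted p = 1.76e-06), Atp5c1 at 31.1 ± 20.2 and 12.8 ± 1.35 CPM (−1.55 ± 0.36, adjusted p = 0.00244) and Atp5a1 at 63.4 ± 35.1 and 42.2 ± 3.02 CPM (−0.84 ± 0.26, adjusted p = 0.0198). Libraries of the 2 groups overlapped for Atp5a1 and Atp5c1.

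The 3 higher members were Cox11, Ndufaf2 and Cox15. Cox11 had no rIgG count against 163 in the p-UPF1 IP and was at least 2.48-fold higher, and Ndufaf2 had none against 104 and was at least 1.58-fold higher. Cox15 had 1 rIgG count against 173, a ratio of 7.89 with a counting interval of 1.40 to 313. These calls depended on the rIgG libraries: 0 were left without rIgG IP replicate 1 or 2, and 1 without replicate 3.

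In the rIgG IP over Input, no member was called by edgeR's quasi-likelihood test among 100 tested, where 0.584% of all genes were higher and 0.313% lower. At an unadjusted p under 0.05, 15 members passed. DESeq2 called 0, but 4 members were called lower with filterByExpr, 7 with no filter and 2 with all 9 libraries in one fit. In 38 members all rIgG IP libraries were below all Input libraries (48.2% of all genes), and in 0 above (1.89%). The medians were −0.61 for members and −0.84 for all genes, but with genes at 0 in a group set to their bound they were −0.41 and 0, so the order of the medians depends on the treatment of low counts. The depth of this group sets the limit, because the mean Input share lay above the floor of 3 counts for 63 members in rIgG IP replicate 1, 28 in replicate 2 and 5 in replicate 3.

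The members differ from other genes in the length of their mRNAs. Taking 1 coding transcript per gene, the median length was 944.5 nt for 98 tested members and 3038.5 nt for 12760 tested coding genes. The coding sequence had a median of 433.5 against 1374 nt and the 3′ UTR one of 188.5 against 1014 nt, and 75 of 98 members (76.5%) had a 3′ UTR under 500 nt against 29.8% of all coding genes. They had a median of 4 exons against 9. GC content was alike, at medians of 50.5% in both sets.

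Shorter mRNAs were lower in the p-UPF1 IP, both among members and among other genes, as a description across genes that share the same libraries. Spearman's rho between log2 fold-change and mRNA length was 0.50 over 98 members and 0.20 over all 12760 coding genes, and with coding length it was 0.53 and 0.22. With 3′ UTR length it was 0.16 and 0.10. With GC content it was 0.07 over members and 0.42 over all coding genes, the largest of these values over all coding genes. Among coding genes up to 1930 nt, the shortest of 4 equal bins, which held 83 members, the median log2 fold-change was −2.68 for members and −0.85 for 3108 other genes, and 91.6% and 47.9% were lower. Lengths were not matched within this bin. Only 15 members were longer, with medians of −1.18 (n = 8), −1.96 (n = 5) and −1.29 (n = 2) in the next 3 bins. The other coding genes in these bins had medians of −0.15 (n = 3181), 0.14 (n = 3185) and −0.01 (n = 3188).

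**Figure D5:**
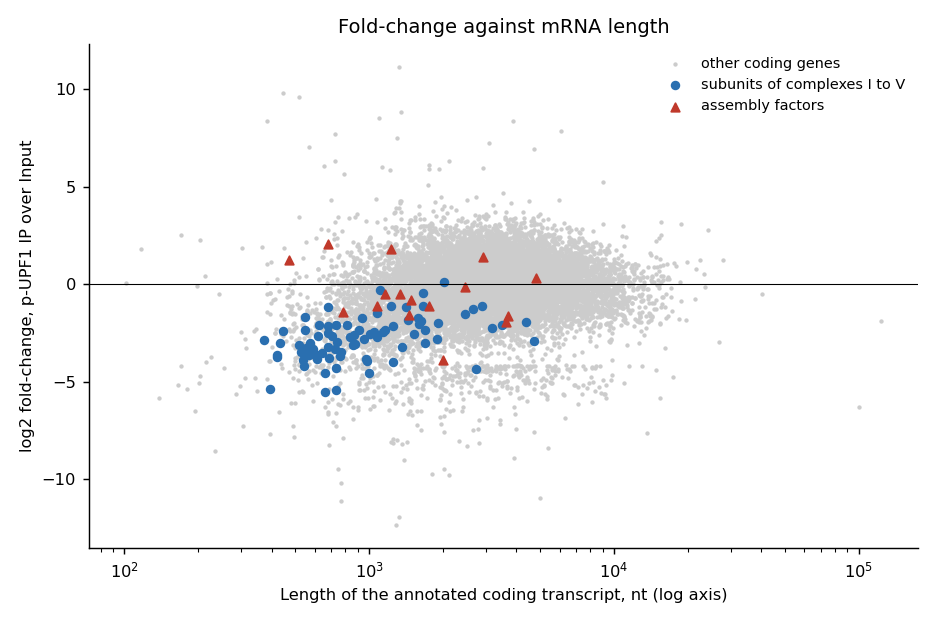
log2 fold-change in the p-UPF1 IP over Input against the length of the annotated coding transcript (nt, log axis), 1 point per coding gene. Subunit genes (blue) gather at short lengths and low fold-changes, with 83 of 98 members at or below 1930 nt, and assembly factors (red triangles) are spread over longer lengths.

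Assembly factors were longer than subunits, with medians of 1469 nt (n = 16) and 849.5 nt (n = 82), and the 5 higher ones covered a wide range. The coding transcripts of Cox20 and Ndufaf2 measure 471 and 678 nt, that of Cox11 1224 nt, and those of Cox10 and Cox15 2915 and 4798 nt. The part of length in the difference between the classes was not tested.

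Other genes of the pathway, from lists drawn up by name, gave a frame for these values. All 13 mitochondrially encoded subunits were lower in the p-UPF1 IP over Input (median −4.71). Of 39 OXPHOS genes outside the symbol rule, mostly assembly factors, 16 were lower (41.0%) and 12 higher (30.8%), with a median of −0.34, close to the 35.7%, 26.3% and −0.42 of all genes tested. Those higher included Uqcc1, an assembly factor of complex III, at 127, 94 and 135 counts in Input against 257, 312 and 316 in the p-UPF1 IP (3.11, adjusted p = 4.98e-09), and Atpif1, the inhibitor of ATP synthase, at 480, 441 and 528 and then 305, 440 and 335 (1.37, adjusted p = 7.21e-07). Cycs, the electron carrier cytochrome c, was lower (−2.50, adjusted p = 0.000816), as was Cyc1, the cytochrome c1 subunit of complex III (−1.23, adjusted p = 2.13e-06). Of 13 TCA cycle enzymes 11 were lower and 1 higher (median −1.63), of 78 mitochondrial ribosomal proteins 63 were lower and 5 higher (−1.38), and of 85 tested cytoplasmic ribosomal proteins 77 were lower and 6 higher (−2.69). The members' median of −2.52 thus lay near that of the cytoplasmic ribosomal proteins, and the difference between the lists was not tested.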

How the data were processed

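RIP-seq libraries of N2A cells were single-end reads of short RNase I fragments. The authors trimmed reads with fastp, aligned with STAR (listed in the processing notes as 2.7.0f) to GRCm38 (GENCODE M22) and quantified transcripts with Salmon 0.13.1, and they deposited the estimated counts per transcript as whole numbers, unscaled and not pooled; the rounding step is not given in the sources used here. All 9 columns were matched to samples by name. Here counts were summed per gene symbol. Each pair of groups was tested with edgeR 4.0.16 (R 4.3.3; TMM, quasi-likelihood, summed count at least 10, 6 libraries, Benjamini-Hochberg over all genes); the fit was also tested on simulated data. SE is the log2 fold-change over the root of F. Features came from GENCODE M21, where 139921 of 140658 transcripts matched by identifier and version.

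Lengths are those of 1 complete, best-ranked coding transcript per gene. Named genes were, by rule, the 2 most counted of each complex and all of complex II, the 6 largest and 6 smallest fold-changes among members with at least 100 counts, 3 members of the study's NMD list, paralogs, and the 4 with most rIgG counts; others were chosen after values were seen. 1 gene under this rule is not reported here. Members and lists were chosen with earlier results of these data known. From the cytoplasmic ribosomal pattern, S6 kinases and a binding protein were removed afterwards (with them, 79 of 96 were lower and 13 higher).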

Additional observations from a re-analysis of the deposited data

How the results depend on the processing

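The alternatives were RLE factors, library totals, filterByExpr, no filter, all 9 libraries in one fit, DESeq2 1.42.0, a replicate block, and leaving out each library. In the p-UPF1 IP over Input, the counts of lower and higher members stayed within 1.5 times under all of them, with 86 to 89 lower and 4 to 5 higher when single libraries were left out. The members' median relative to all genes was −2.11; it moved to −2.39 with filterByExpr and −1.18 with no filter, where more or fewer low genes enter the all-gene median, and lay between −2.21 and −2.03 without single libraries. Against the rIgG IP, 34 lower members became 21 with filterByExpr (43 tested) and 19 with the replicate block, and 9 to 36 without single libraries; 3 higher members became 1 with the block, 1 with DESeq2 and 0 to 3 without single libraries. The relative median of −2.32 there became −1.98 with filterByExpr, −2.76 with no filter and −1.92 with DESeq2, and lay between −2.67 and −2.21 without single libraries. In the rIgG IP over Input, lower members rose from 0 to 4 with filterByExpr, 7 with no filter and 2 with all 9 libraries, and were 0 to 3 without single libraries; the relative median of 0.23 reversed to −0.11 with filterByExpr and −0.48 with DESeq2, and lay between 0.064 and 2.85 without single libraries. For these the cause was not tested. RLE factors changed the all-gene split of p-UPF1 IP against rIgG IP from 18.5% higher and 5.56% lower to 12.5% and 6.97%. The 10 enriched member transcripts became 3 with the replicate block and were 9 to 14 without single libraries. Libraries that share a replicate number deviated from their group means independently (r from −0.03 to 0.06 over genes with a mean count of at least 20), so the numbers were not taken as pairs, and the block changed no other count of members by over 1.5 times; over all genes, it lowered the calls against the rIgG IP to 11.8% higher and 3.56% lower. Among named members tested against Input, only the p-UPF1 IP calls of Atp5g2, Cox15, Cox6a2 and Ndufa10 changed side under any alternative, and none changed direction; Cox6a2 passed without p-UPF1 IP replicate 2 (−5.95, adjusted p = 0.0164). The depth of the rIgG IP libraries limits both comparisons that use them.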
